A study of Mus musculus with 3 samples.

Results

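The 10 genes described here encode the GABA-B receptor and its closest partners, namely the receptor subunits Gabbr1 and Gabbr2, the auxiliary subunits Kctd8, Kctd12, Kctd12b and Kctd16, and the potassium channel subunits Kcnj3, Kcnj5, Kcnj6 and Kcnj9. They were chosen by name from the 31055 genes of the raw count tables, where each of the 10 had 1 row. GABA-B receptors are the metabotropic receptors for GABA. A working receptor is a heterodimer in which the GABBR1 protein binds GABA while GABBR2 carries it to the cell surface and couples to Gi/o proteins. The KCTD proteins bind the receptor and shape the onset and desensitization of the response, and G protein βγ dimers open the GIRK channels, G protein gated inward rectifiers encoded by the Kcnj genes above. In the olfactory bulb (OB), GABA-B receptors are known for their action on the terminals of olfactory sensory neurons and on local inhibition.

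The data are single-nucleus RNA counts from the OB of 3 adult male C57Bl/6 mice, which form 1 group with 1 library each. All 3 had received a retroAAV-CAG-H2B-GFP virus in the piriform cortex (PCx) and the anterior olfactory nucleus (AON), so that nuclei of bulb neurons whose axons reach these areas carried nuclear GFP and could be sorted. The sort also held many nuclei of local neurons and some of glia, and no uninjected animal was measured. Mice 1, 2 and 3 gave 5845, 21105 and 4753 nuclei with 58526996, 213891496 and 62929479 UMIs, the molecular tags that count captured transcripts once. What follows compares cell types, and each mouse is 1 replicate.

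Types were the deposited clusters and subclusters, named here from marker genes, and "-like" marks a name so given. The 7 named types of projection neuron (PN), with 6346 nuclei, were the mitral-like M1, M2 and M3, the tufted-like T1 and the external tufted-like ET1, ET2 and ET4. Their markers came from lists that the study had chosen on these samples. In the contrasts below the tufted-like types are T1 and the 3 external tufted-like ones. The M1-like sum of mouse 1 held only 14 nuclei and 161593 UMIs, while the largest sum held 16961469 UMIs. Of the barcodes of retained nuclei, 39 occurred in the libraries of mice 1 and 2, 8 in those of mice 1 and 3 and 35 in those of mice 2 and 3. Levels are given as CPM, UMIs of a gene per 1000000 UMIs of the summed nuclei, and are compared between types for 1 gene at a time, because gene lengths were not taken into account. In sums of nuclei, fewer nuclei with a transcript and less transcript per nucleus cannot be told apart, so shares of nuclei are given as well.

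In the projection neurons, Gabbr1 had type means of 86.8 to 222 CPM. Per UMI, the lowest of these was not above the mean of microglia-like nuclei, taken below as background. The partner of Gabbr1, Gabbr2, was far higher in the 3 external tufted-like types than in the other 4. Kcnj6, a GIRK subunit, was likewise highest in the external tufted-like types. The auxiliary subunits Kctd8 and Kctd16 and another GIRK subunit, Kcnj3, each had another order of types. Kctd12, with few UMIs, also had its highest means in the external tufted-like types. Of the 10 genes, 9 passed the filter on low counts, and all 9 differed between the 7 types (F test of edgeR's quasi-likelihood fit, largest adjusted p = 8.05e-04, for Kctd12). With 64.8% of all 14696 tested genes passing the same test, this count is not particular to these genes. The types were formed by clustering the same counts, so p-values describe these clusters and do not test whether they exist.

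**Figure D1:**
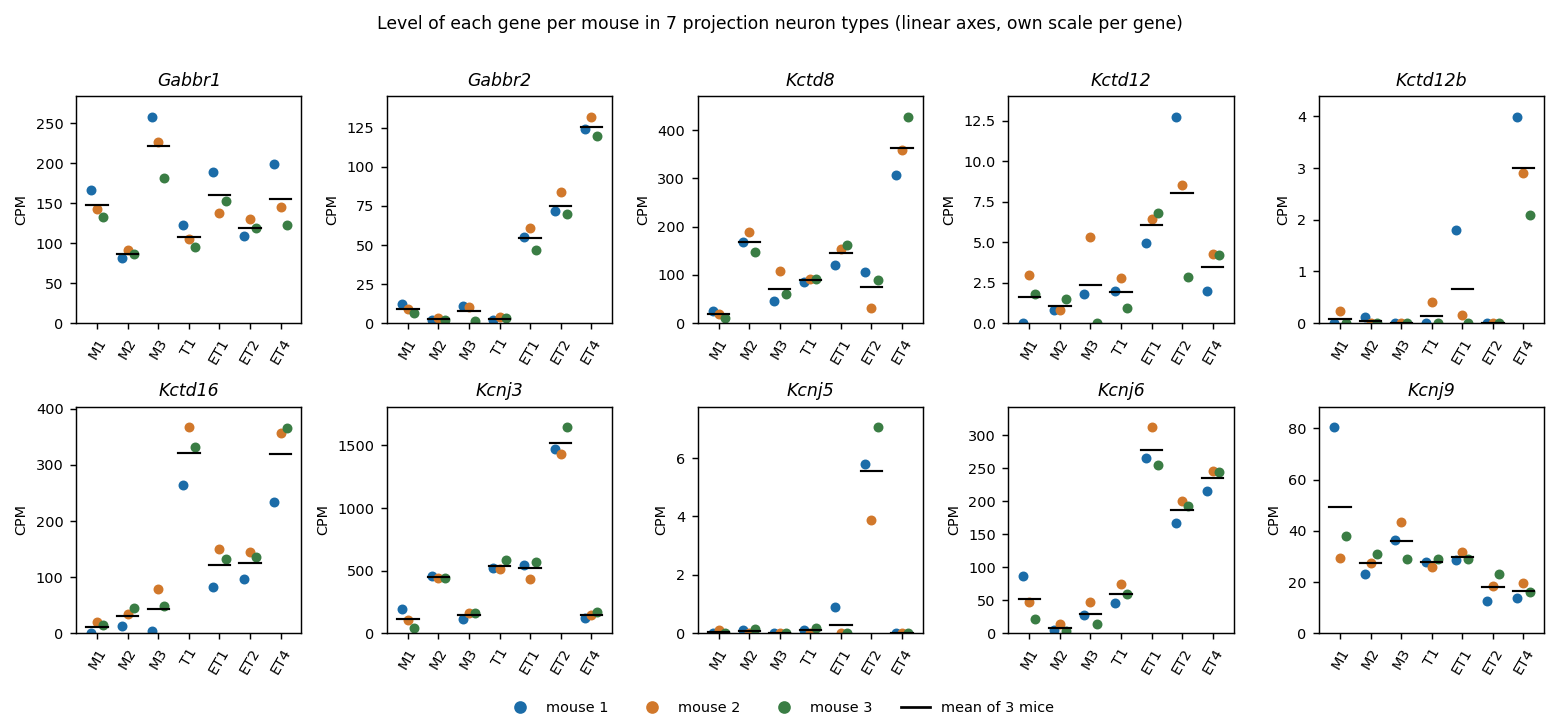
Level of the 10 genes in CPM (vertical axes) in the 7 PN types, with a separate scale for each gene. Points are single mice and lines the mean of 3 mice. Gabbr2 lies at 47.1 CPM or above in all 9 external tufted-like sums and at 12.4 CPM or below in the 12 others, while Gabbr1 spans 81.9 to 258 CPM.

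Gabbr1 (ENSMUSG00000024462, chromosome 17, 37045966 to 37075067, plus strand, GRCm38 as all positions here) encodes the subunit that binds GABA. It has the isoforms 1a and 1b, which share the 3′ end, so that its values cover both. Gabbr1 was highest in M3-like nuclei, with 258, 226 and 182 CPM in mice 1, 2 and 3, and lowest in M2-like nuclei, with 81.9, 91.8 and 86.7 CPM. The means of the other 5 types lay between 108 and 159.7 CPM. M3-like nuclei were the shallowest of the 7 types, with a median of 5915 UMIs, and M2-like nuclei the deepest, with 20781. Their unadjusted shares of nuclei with a Gabbr1 UMI, given below, had the opposite order. M3- and M2-like sums did not overlap, and this was the only 1 of 21 pairs of types in which Gabbr1 was called (log2 fold change of M2-like against M3-like −1.03, SE 0.15). A gene was called where its adjusted p was below 0.05 and its level changed by more than 1 on the log2 scale, which held for 16.4% of all gene and pair combinations. None of the 6 steps between neighbours in the order M3, ET1, ET4, M1, ET2, T1, M2 was called (adjusted p from 0.208 to 0.988).

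Gabbr2 (ENSMUSG00000039809, chromosome 4, 46662305 to 46991873, minus strand) encodes the subunit that couples to the G protein. In ET4-like nuclei its level was 124, 132 and 119 CPM in mice 1, 2 and 3. In ET2-like nuclei it was 71.7, 83.6 and 69.8 CPM, and in ET1-like nuclei 55.2, 61.1 and 47.1 CPM. These 3 types did not overlap with one another or with any other type. In M1-like nuclei the level was 12.4, 8.98 and 6.77 CPM and in M3-like nuclei 10.9, 10.6 and 1.61 CPM. In T1-like nuclei it was 1.75, 3.71 and 3.08 CPM and in M2-like nuclei 2.14, 3.57 and 2.01 CPM. The tufted-like T1 thus lay within the range of the mitral-like types and apart from the external tufted-like ones.

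The contrast of the 3 external tufted-like types with the other 4 gave a log2 fold change of Gabbr2 of 4.01 (SE 0.13, adjusted p = 1.84e-17), with all 9 sums above all 12 others. The study had itself picked Gabbr2 as a marker of external tufted cells on these samples, so this direction is not independent evidence. Against the mean of the other 6 types, Gabbr2 was higher in ET4-like nuclei by 3.34 on the log2 scale (SE 0.13, adjusted p = 1.25e-16), in ET2-like nuclei by 2.54 (SE 0.15) and in ET1-like nuclei by 2.14 (SE 0.15). It was lower in the other 4 types, from −1.10 (M1-like, adjusted p = 3.24e-04) to −2.88 (M2-like, adjusted p = 1.24e-10). Among neighbours in the order, the step between ET1-like and M1-like nuclei was called (M1 against ET1 −2.78, SE 0.24, adjusted p = 9.90e-10), as was that between M3-like and T1-like nuclei (M3 against T1 1.16, SE 0.43, adjusted p = 0.0423), where the mice overlapped and both levels lay below the background given next. ET2-like nuclei were below ET4-like nuclei by less than the fold needed for a call (−0.68, SE 0.19, adjusted p = 0.00545), and ET1- and ET2-like nuclei were not separated (adjusted p = 0.206).

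The share of nuclei with a UMI showed the same division. To set nuclei of unequal depth side by side, each was thinned to 2000 UMIs by calculation. A Gabbr2 UMI was then expected in 20.3% ± 0.54 (SD, n = 3 mice) of ET4-like nuclei, 12.7% ± 1.05 of ET2-like and 9.68% ± 1.80 of ET1-like nuclei. The shares were 1.81% ± 0.44 in M1-like, 1.65% ± 1.31 in M3-like, 0.66% ± 0.24 in T1-like and 0.54% ± 0.18 in M2-like nuclei. Before thinning the shares were 58.5% in ET4-like, 4.11% in T1-like and 4.69% in M2-like nuclei. Microglia-like nuclei, taken as the background left by free RNA, had 2.17% ± 1.90 after thinning and 6.76% before, at a median of 3405 UMIs per nucleus against 15749.5 in T1-like nuclei. The mean shares of all 4 types other than the external tufted-like ones were below that background and are not read as expression, nor are differences among these 4, and folds against them rest on a level that free RNA could give. For Gabbr1 the thinned shares ran from 16.1% ± 1.17 in M2-like to 31.6% ± 7.35 in M3-like nuclei, against 17.3% ± 5.30 in microglia-like nuclei, so that the M2-like share was not above this background either, and the T1-like (19.4% ± 2.08) and ET2-like shares (21.1% ± 2.26) lay within its spread. Before thinning, 71.8% of M2-like, 60.7% of M3-like and 29.4% of microglia-like nuclei held a Gabbr1 UMI. The comparison of M2-like nuclei with this background thus depends on the depth at which it is made. The background comes from 146 microglia-like nuclei.

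Both subunits were also set against each other in the same sums. For every 100 UMIs of Gabbr1 there were 83.8 ± 18.7 (SD, n = 3) of Gabbr2 in ET4-like nuclei, 62.9 ± 3.85 in ET2-like and 34.8 ± 8.40 in ET1-like nuclei. In M1-, M3-, M2- and T1-like nuclei there were 6.27 ± 1.15, 3.27 ± 2.07, 2.94 ± 0.834 and 2.72 ± 1.13, from Gabbr2 counts at the level of background. These ratios compare types and, without gene lengths, do not give the ratio of the transcripts. UMIs of both genes in the same nucleus were found in 40.4%, 40.6% and 47.2% of ET4-like nuclei of mice 1, 2 and 3 and in 1.92%, 2.64% and 3.29% of T1-like nuclei, without thinning.

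**Figure D2:**
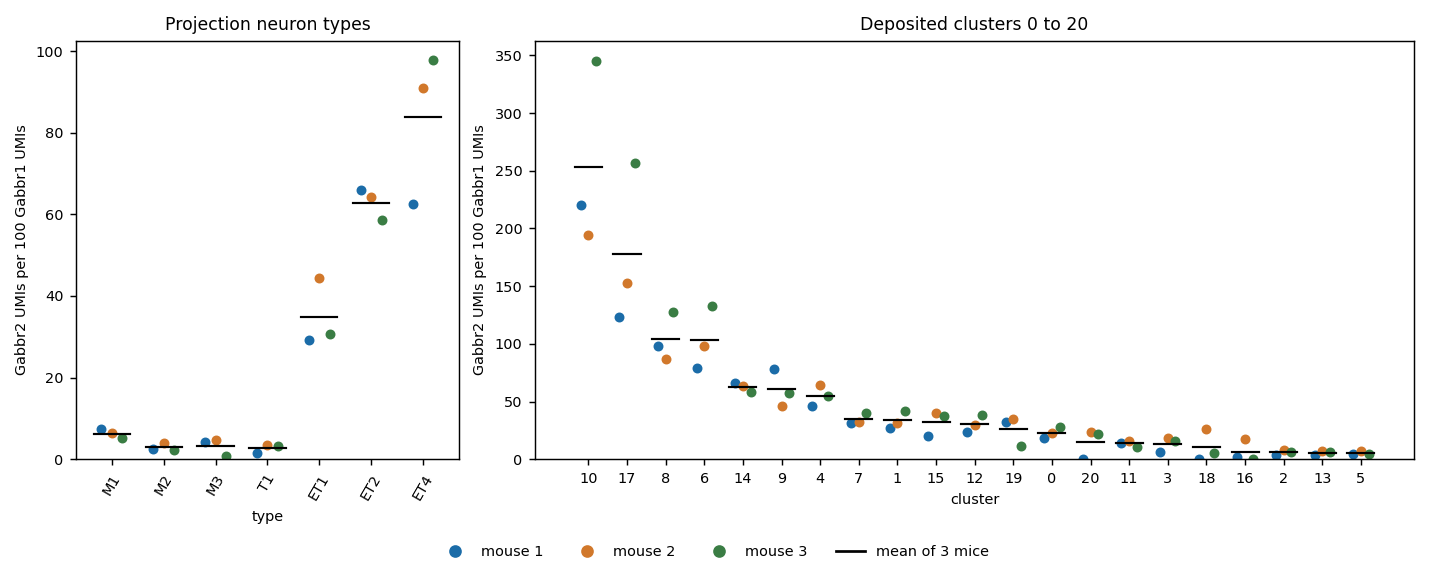
Gabbr2 UMIs per 100 Gabbr1 UMIs in the PN types and in the deposited clusters. Points are single mice and lines the mean of 3 mice. External tufted-like types have means of 34.8 to 83.8 and the other 4 types 6.27 or less, while cluster 10, an inhibitory-neuron-like cluster, reaches 253.

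Gabbr2 and Kcnj6 were high in the same PN types while Gabbr1 was not, and the DNA before these 3 genes is shown for comparison. The sequences are from RefSeq (GRCm38.p6), on the strand of the gene, and only bases before the annotated gene are printed. CG dinucleotides, which are dense in CpG island promoters, are in capitals.
Gabbr1, chr17:37045716-37045965, plus strand: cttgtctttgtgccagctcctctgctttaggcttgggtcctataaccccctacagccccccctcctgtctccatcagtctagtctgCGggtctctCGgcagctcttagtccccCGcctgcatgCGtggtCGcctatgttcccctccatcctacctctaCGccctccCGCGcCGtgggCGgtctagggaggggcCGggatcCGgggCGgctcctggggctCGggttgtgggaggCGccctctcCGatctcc
Gabbr2, chr4:46991874-46991964, minus strand: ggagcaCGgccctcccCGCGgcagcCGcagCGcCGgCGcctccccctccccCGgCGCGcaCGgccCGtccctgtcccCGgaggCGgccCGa
Kcnj6, chr16:94997702-94997946, minus strand: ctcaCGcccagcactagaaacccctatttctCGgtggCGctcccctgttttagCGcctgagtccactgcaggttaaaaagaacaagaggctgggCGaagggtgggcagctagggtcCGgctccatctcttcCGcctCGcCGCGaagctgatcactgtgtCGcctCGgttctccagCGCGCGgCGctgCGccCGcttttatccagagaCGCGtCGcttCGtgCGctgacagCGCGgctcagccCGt
The 250 bases before the RefSeq start hold 37 CG dinucleotides for Gabbr2, 26 for Kcnj6 and 16 for Gabbr1, against a median of 6 over all 32817 mouse promoters of that length. Of these promoters, 97.8%, 90.4% and 74.6% hold fewer than those of Gabbr2, Kcnj6 and Gabbr1. A second RefSeq start of Kcnj6, further into the gene, has 7 CG dinucleotides in its 250 bases, and 53.7% of promoters hold fewer. RefSeq promoters were matched for 8 of the 10 genes, in 9 windows. Searched on both strands of these windows were the EBF motif, TCCC and GGGA parted by 2 bases (in 0.78% of all promoters), the LIM homeobox motif TAATTA (4.85%), the T-box motif GGTGTGA (3.33%) and the TATA box TATAAA (12.4%). The only match was a TATA box before Kcnj9, and the absence of these letters says nothing of the factors that act on the other genes.

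The KCTD auxiliary subunits differed from the receptor subunits and from one another. Kctd8 (ENSMUSG00000037653, chromosome 5, 69109285 to 69341679, minus strand) encodes a subunit that does not promote desensitization. It was highest in ET4-like nuclei, with 306, 359 and 428 CPM in mice 1, 2 and 3. M2-like nuclei had 168, 189 and 147 CPM, and M1-like nuclei only 24.8, 18.9 and 10.96 CPM. The ET4-like sums lay above every other sum and the M1-like sums below every other sum. Against the other types Kctd8 was higher in ET4-like nuclei (2.15, SE 0.18, adjusted p = 2.71e-10) and in M2-like nuclei (1.13, SE 0.19, adjusted p = 2.93e-05), and lower in M1-like nuclei (−2.98, SE 0.31, adjusted p = 2.56e-08). The mitral-like types thus held both the second highest and the lowest mean of this gene, and M1- and M3-like nuclei differed (−2.08, SE 0.38, adjusted p = 2.74e-04). A Kctd8 UMI was expected in 42.9% ± 3.78 of thinned ET4-like nuclei and in 3.60% ± 2.21 of M1-like ones. Microglia-like nuclei had 6.27% ± 1.32, so that the M1-like share is not read as expression.

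Kctd16 (ENSMUSG00000051401, chromosome 18, 40256962 to 40531630, plus strand), whose product likewise does not promote desensitization, was highest in T1- and ET4-like nuclei. It had 264, 367 and 332 CPM in T1-like nuclei and 234, 356 and 365 CPM in ET4-like nuclei, which overlapped (adjusted p = 0.623). ET2- and ET1-like nuclei followed with means of 126 ± 25.02 and 122 ± 35.1 CPM (SD, n = 3). The mitral-like types were lower, with 3.63, 78.6 and 48.3 CPM in M3-like, 12.99, 34.6 and 44.9 CPM in M2-like and 0, 20.6 and 15.5 CPM in M1-like nuclei. No mitral-like sum of Kctd16 reached any tufted-like sum. The thinned shares of M1-like (1.76% ± 1.52) and M2-like nuclei (4.02% ± 1.42) were below the 5.21% ± 3.51 of microglia-like nuclei and are not read as expression. The M3-like share, 6.24% ± 4.85, lay within the spread of that background. Folds of Kctd16 against mitral-like types thus rest on levels that free RNA could give. Against the other types it was higher in T1-like nuclei (2.29, SE 0.23, adjusted p = 1.13e-08) and in ET4-like nuclei (2.03, SE 0.24, adjusted p = 1.54e-07). It was lower in M1-like nuclei (−2.67, SE 0.40, adjusted p = 7.80e-06) and in M2-like nuclei (−1.62, SE 0.31, adjusted p = 1.92e-04). In M3-like nuclei the change of −1.20 (adjusted p = 0.0261) was no longer called without mouse 1 (−0.95) or without mouse 3 (−1.13, adjusted p = 0.121).

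The remaining auxiliary subunits gave few UMIs in projection neurons. Kctd12 (ENSMUSG00000098557, chromosome 14, 102976581 to 102982637, minus strand), whose product promotes desensitization, had 12.7, 8.52 and 2.82 CPM in ET2-like and 4.94, 6.42 and 6.80 CPM in ET1-like nuclei, while M2-like nuclei had 0.834, 0.840 and 1.47 CPM. Mouse 1 was highest and mouse 3 lowest in ET2-like nuclei, while the ET1-like mice lay close together. It was called higher in ET2-like (1.48, SE 0.40, adjusted p = 0.00599) and ET1-like nuclei (1.24, SE 0.37, adjusted p = 0.0172) and lower in M2-like nuclei (−1.64, SE 0.43, adjusted p = 0.00399). These calls rested on 48, 64 and 26 UMIs in these types, and each was lost when mouse 1 (adjusted p from 0.0507 to 0.145) or mouse 2 (from 0.0579 to 0.311) was left out. That of ET1-like nuclei was also lost without mouse 3 (adjusted p = 0.0868). After thinning, 1.42% ± 0.98 of ET2-like and 1.24% ± 0.31 of ET1-like nuclei were expected to hold a Kctd12 UMI. Astrocyte-like nuclei had 1.39% ± 0.53 and oligodendrocyte-precursor-like ones 1.44% ± 1.63, so that these levels are not read as expression. Kctd12b (ENSMUSG00000041633, chromosome X, 153685154 to 153696391, minus strand), a close relative of Kctd12, did not pass the filter. It had 30 UMIs in 24 of 883 ET4-like nuclei, or 3.99, 2.91 and 2.10 CPM in mice 1, 2 and 3, against 15 UMIs in the other 6 types. Per UMI this was 19.1 times the level of the other types together (95% counting interval 9.98 to 38.3, nuclei of 3 mice pooled).

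GIRK channels are tetramers, of which those of GIRK1, encoded by Kcnj3, and GIRK2, encoded by Kcnj6, are the common form in brain. Kcnj3 (ENSMUSG00000026824, chromosome 2, 55435970 to 55598145, plus strand) was highest in ET2-like nuclei, with 1469, 1432 and 1645 CPM. T1-like nuclei had 520.1, 516 and 587 CPM, ET1-like nuclei 547, 437 and 569.9 CPM and M2-like nuclei 459, 440.3 and 440.2 CPM. The ET2-like sums lay above all others. ET4-like nuclei had only 125, 146 and 171 CPM, overlapping with the M3-like nuclei, with 111, 162 and 159.5 CPM, and the M1-like nuclei, with 198, 107 and 43.8 CPM. Kcnj3 was higher in ET2-like nuclei than in the other types (2.54, SE 0.14, adjusted p = 1.55e-13). It was lower in M1-like (−2.17, SE 0.22), M3-like (−1.53, SE 0.21) and ET4-like nuclei (−1.44, SE 0.19). The thinned shares of these types lay within the spread of the microglia-like background, as given below. Close to the fold needed, T1-like nuclei were called too (1.01, SE 0.15), but not without mouse 3 (0.94). The 3 external tufted-like types, which shared high Gabbr2, thus held both the highest mean of Kcnj3 and one of its 3 lowest.

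Kcnj6 (ENSMUSG00000043301, chromosome 16, 94748636 to 94997701, minus strand) had 266, 312 and 256 CPM in ET1-like, 215, 246 and 244 CPM in ET4-like and 167, 200.02 and 193 CPM in ET2-like nuclei. In T1-like nuclei it had 45.4, 75.2 and 59.4 CPM and in M1-like nuclei 86.6, 47.6 and 21.7 CPM. In M3-like nuclei it had 27.2, 46.8 and 14.5 CPM and in M2-like nuclei 5.48, 14.5 and 4.02 CPM. As for Gabbr2, all 9 external tufted-like sums lay above all 12 others. The thinned share of M2-like nuclei, 1.42% ± 0.86, was below the 2.74% ± 2.58 of microglia-like nuclei. The contrast of external tufted-like with the other types was 2.99 (SE 0.17, adjusted p = 2.33e-13). The study had listed Kcnj6 among channel genes whose levels differ between mitral and tufted subtypes on these samples. A difference between types is thus not independent evidence here. Against the other 6 types, Kcnj6 was higher in ET1-like (2.42, SE 0.19), ET4-like (1.94, SE 0.20) and ET2-like nuclei (1.62, SE 0.21) and lower in M2-like (−3.42, SE 0.29) and M3-like nuclei (−1.49, SE 0.34). In M1-like nuclei the change of −0.98 (SE 0.28) missed the fold for a call, which it passed with the mouse as a block (−1.11, adjusted p = 2.44e-05) and without the small sum of mouse 1 (−1.06, adjusted p = 0.00574). In the order ET1, ET4, ET2, T1, M1, M3, M2, the steps between ET2- and T1-like nuclei (T1 against ET2 −1.47, SE 0.28, adjusted p = 1.62e-04) and between M3- and M2-like nuclei (M2 against M3 −1.66, SE 0.45, adjusted p = 0.00568) were called. Both means of the latter step lay below the 38.7 CPM of microglia-like nuclei, with 29.5 CPM in M3-like nuclei. The thinned M3-like share, 6.42% ± 2.38, was above the microglia-like one, so that the 2 measures differ for this type.

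Across the 21 sums, Pearson's r of log2(CPM + 1) between Gabbr2 and Kcnj6 was 0.87, the highest of the 45 pairs among the 10 genes. Kcnj3 and Kcnj5 followed at 0.71 and Gabbr2 and Kctd12 at 0.68. These values describe 7 types in 3 mice, whose sums share mice and types, and carry no test.

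**Figure D3:**
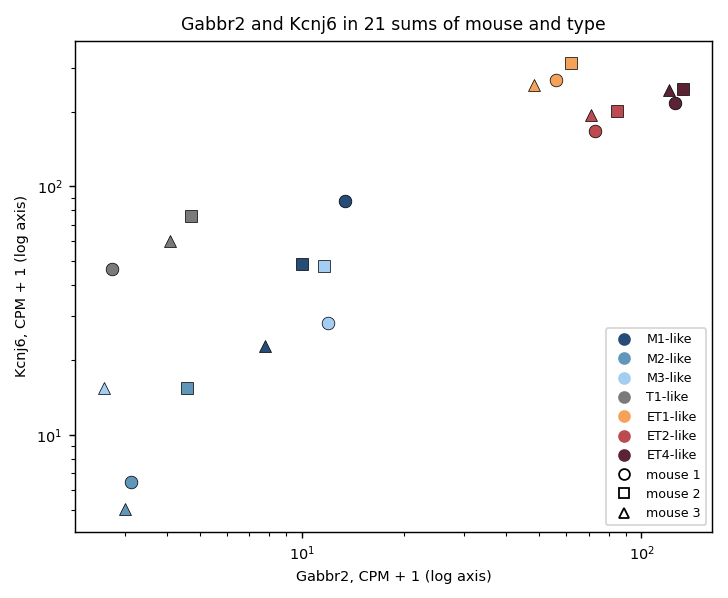
Kcnj6 against Gabbr2 in the 21 sums of mouse and PN type, in CPM + 1 on log axes. The 9 external tufted-like sums lie at 47.1 CPM or more of Gabbr2 and 167 CPM or more of Kcnj6, apart from the 12 others.

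Kcnj9 (ENSMUSG00000038026, chromosome 1, 172320501 to 172329318, minus strand), which encodes GIRK3, ran from 16.6 ± 2.89 CPM in ET4-like nuclei to 49.2 ± 27.4 CPM in M1-like nuclei (SD, n = 3), where the 3 mice had 80.4, 29.2 and 37.9 CPM. The high value of mouse 1 came from its 14 nuclei. Kcnj9 was called in none of the 7 contrasts of a type with the others, but in 3 of 21 pairs of types. It was higher in M1-like than in ET4-like (1.21, SE 0.22, adjusted p = 8.64e-05) and ET2-like nuclei (1.04, SE 0.24) and in M3-like than in ET4-like nuclei (1.04, SE 0.26). Kcnj5 (ENSMUSG00000032034, chromosome 9, 32314707 to 32344350, minus strand), which encodes GIRK4, best known from the heart, was found mostly in ET2-like nuclei. There it had 5.79, 3.87 and 7.05 CPM in mice 1, 2 and 3, from 30 UMIs in 13 of 471 nuclei, against 8 UMIs in the other 6 types together. Its level in ET2-like nuclei was 59.3 times that of the other types (95% counting interval 26.5 to 149.6, nuclei of 3 mice pooled), and the call held in the fit (adjusted p = 3.50e-07). No UMI was counted in M3- or ET4-like nuclei, where 3 counts would amount to 1.30 and 0.31 CPM. Intervals and limits of this kind cover counting error only.

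**Figure D4:**
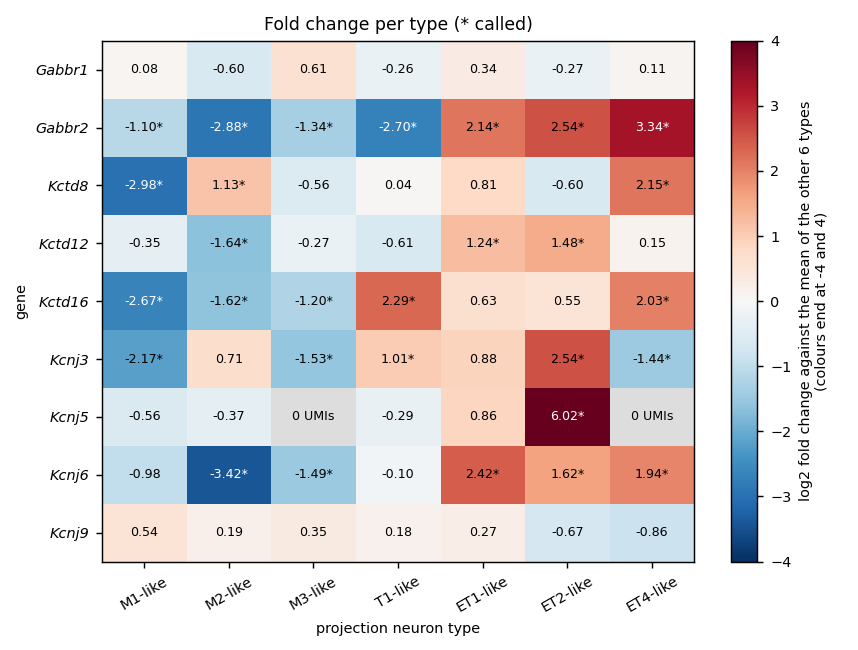
Log2 fold change of the tested genes (rows) in each PN type (columns) against the mean of the other 6 types, from edgeR fits on sums of 3 mice. Red is higher and blue lower, asterisks mark calls, and cells marked "0 UMIs" have no estimate. Gabbr2 is called in all 7 types, and Gabbr1 and Kcnj9 in none.

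In the 63 tests of a gene in 1 type against the others, 29 were called (46.0%), 15 higher and 14 lower. Of all gene and type pairs tested, 12.2% were called. Gabbr2, which the study had picked as a marker on these samples, was called in every type. Its lower calls lie at levels not read as expression, as given above. The study had also listed Kcnj6 as differing between types. Genes were chosen with earlier results of these data known, so any excess of calls here and below is not independent evidence. By type, all genes were called in 11.9% (M1), 12.1% (M2), 8.57% (M3), 12.2% (T1), 8.61% (ET1), 13.8% (ET2) and 18.0% (ET4) of cases, and the 10 genes in 4, 5, 4, 3, 3, 5 and 5 of 9. Between the mitral-like and the tufted-like types, 6 of 9 genes were called and all 6 were lower in mitral-like types, a direction in which 3.81% of all genes were called. These were Kcnj6 (−2.95, SE 0.19), Kctd16 (−2.75, SE 0.23), Gabbr2 (−2.66, SE 0.15), Kcnj3 (−1.49, SE 0.13), Kctd8 (−1.20, SE 0.17) and Kctd12 (−1.13, SE 0.33). The median over the 8 genes with an estimate was −1.35, against −0.03 for all genes. Among the 9 genes, Kctd16 alone had no overlap between mitral-like and tufted-like sums. The call of Kctd8 was lost without mouse 3 (−0.92) and that of Kctd12 without mouse 1 (adjusted p = 0.0747) or mouse 2 (adjusted p = 0.0646). Even the highest Kctd12 levels, in ET2- and ET1-like nuclei, are not read as expression, as given above.

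Between the external tufted-like and the other 4 types, 5 of 9 genes were called, all higher in external tufted-like types, a direction in which 4.46% of all genes were called. Beside Gabbr2 and Kcnj6, given above, these were Kctd16 (1.60, SE 0.21, adjusted p = 9.79e-07), Kctd12 (1.43, SE 0.30, adjusted p = 5.29e-04) and Kctd8 (1.18, SE 0.16, adjusted p = 1.44e-06), whose sums overlapped between the sides. Kctd8 was no longer called without mouse 3 (0.90), and the Kctd12 levels are not read as expression, as given above. Kcnj3 stood at the edge of a call, with 0.99 (SE 0.12), and passed it with the mouse as a block (1.00, adjusted p = 6.79e-09). These contrasts share their sums and are not independent.

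Markers of other classes were measured in the same sums. The summed level of 6 inhibitory neuron markers ranged from 62.7 CPM (ET1-like, mouse 3) to 889 CPM (ET2-like, mouse 2), and mouse 2 had the highest value in each type. ET2-like nuclei also had most astrocyte marker RNA in mice 2 and 3, and in all 3 mice 281 to 335 CPM against 31.7 to 283 CPM elsewhere. The part of admixed RNA in the values of the 10 genes was not tested.

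The closest genes to 9 of the 10 across the 21 sums, by Pearson's r of log2(CPM + 1) among genes with a type mean of at least 20 CPM, are given as a description. For Gabbr2 they were Tmem132b (0.96), Pex5l (0.96) and Trpc4 (0.94). For Kcnj6 they were Trpc4 (0.93), Vwc2l (0.92) and Phyhipl (0.92), so that Trpc4, a cation channel gene, was near both. For Kctd16 they were 2900055J20Rik (0.95), Adrb1 (0.91) and Mkln1 (0.89), with Adrb1 encoding the β1 adrenergic receptor. For Kctd8 they were Cplx1 (0.91), Ctdspl (0.87) and Cacna2d3 (0.86), for Kcnj3 Nav1 (0.94), Tenm4 (0.93) and Cttnbp2 (0.92) and for Gabbr1 Tecr (0.92), Maged1 (0.90) and Pcsk1n (0.89). For Kcnj5 they were Dsp (0.99), 4930438E09Rik (0.99) and Hcrtr2 (0.98), and Dsp is itself one of the markers used to name ET2. Those of Kctd12 were Cers5 (0.85), Rnf2 (0.84) and Cacna2d2 (0.84) and those of Kctd12b Cyp2d22 (0.92), Ern1 (0.91) and 9130008F23Rik (0.91).

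The local inhibitory neurons of the bulb, which release GABA onto mitral and tufted cells, were compared next. The 21236 nuclei of 10 inhibitory-neuron-like clusters were summed per mouse and set against the 7 PN types together. Of 9 tested genes, 4 were called and all 4 were lower in the summed projection neurons, a direction in which 13.9% of all 18088 genes were called. Gabbr2 had 23.1, 31.9 and 15.8 CPM in projection neurons of mice 1, 2 and 3 and 68.8, 61.3 and 87.8 CPM in inhibitory neurons (−1.54, SE 0.25, adjusted p = 0.0011). Kcnj3 had 481, 446 and 474 CPM against 1013, 1078 and 1046 CPM (−1.09, SE 0.09, adjusted p = 2.58e-05). In both genes each PN sum lay below each inhibitory sum, as in Kcnj6, Kctd12 and also Gabbr1, which was not called. With 3 sums on each side, and the share of all genes without overlap not counted, this is not read as a result about these genes. Kcnj6 had 74.8, 115 and 67.4 CPM against 168, 208 and 193 CPM (−1.07, SE 0.21, adjusted p = 0.00287), and lost the call without mouse 3 (−0.92). The PN sums pool unlike types. Gabbr2 means of ET4-like (125 CPM) and ET2-like nuclei (75.1 CPM) were above the inhibitory mean of 72.6 CPM. So were Kcnj6 in ET1-like (278 CPM) and ET4-like nuclei (235 CPM), against 190 CPM, and Kcnj3 in ET2-like nuclei (1515 CPM), against 1045.5 CPM. For these genes the means of all other named types were lower. Kctd12 had 2.23, 3.54 and 1.90 CPM against 8.94, 7.89 and 4.72 CPM (−1.39, SE 0.30, adjusted p = 0.00534), and lost the call without mouse 1 (adjusted p = 0.0722). Its thinned share was 1.35% ± 0.34 in inhibitory neurons and 1.39% ± 0.53 in astrocyte-like nuclei, so that neither side is read as expression.

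The other genes were not called between the classes. Kctd8 (0.49, SE 0.11, adjusted p = 0.00502) and Kcnj9 (0.42, SE 0.10, adjusted p = 0.00915) were higher in projection neurons by less than the fold for a call. Their sums did not overlap, which is likewise not read as a result. Gabbr1 had 125, 122 and 108 CPM against 169, 139 and 139 CPM (−0.25, SE 0.10, adjusted p = 0.0583). Kctd16 (adjusted p = 0.403) and Kctd12b (adjusted p = 0.441) were not separated, and Kcnj5 did not pass the filter. For every 100 Gabbr1 UMIs there were 49.4 ± 12.2 Gabbr2 UMIs in inhibitory and 19.7 ± 5.93 in projection neurons (SD, n = 3).

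Across the 21 deposited clusters with enough nuclei for a sum in each mouse, all 9 tested genes differed, where 86.0% of 16622 genes did. In 189 tests of a gene in 1 cluster against the others 76 were called (40.2%), 41 higher and 35 lower, against 14.9% of all gene and cluster pairs. Among the 10 inhibitory-neuron-like clusters alone, 8 of 8 tested genes differed, where 59.2% of 14722 genes did. This was lost for Gabbr1 without mouse 2 (adjusted p = 0.0701) and for Kctd12 without mouse 1 (adjusted p = 0.19).

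**Figure D5:**
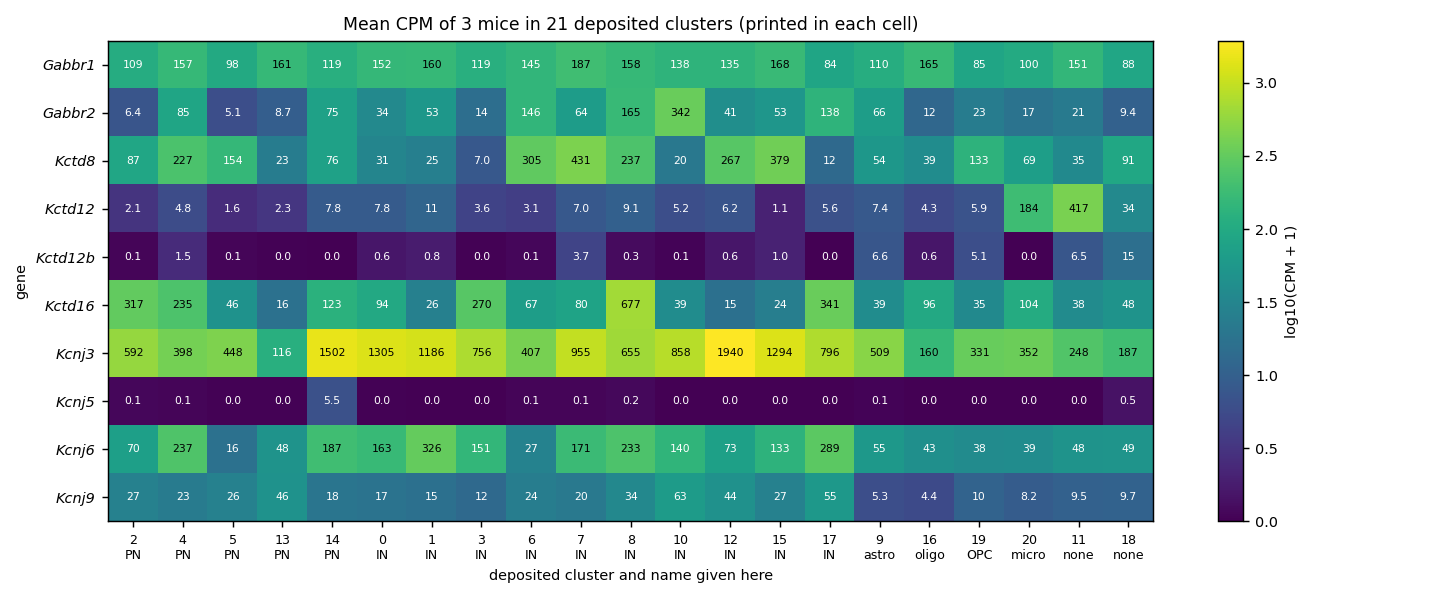
Mean level of the 10 genes over 3 mice in the 21 deposited clusters that were fitted, in CPM, printed in each cell and coloured as log10(CPM + 1). PN and IN mark projection- and inhibitory-neuron-like clusters, astro, oligo, OPC and micro mark astrocyte-, oligodendrocyte-, oligodendrocyte-precursor- and microglia-like ones, and none marks unnamed clusters. Kctd12 exceeds 30 CPM only in clusters 11, 18 and 20 of these, and Kcnj5 exceeds 1 CPM only in cluster 14.

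Each of the variable genes had its own set of inhibitory-neuron-like clusters. Gabbr2 was highest in cluster 10, with 344, 271 and 412 CPM in mice 1, 2 and 3 (log2 fold change against the other clusters 3.32, SE 0.16). Clusters 8, 6 and 17 followed with means of 165, 146 and 138 CPM, each called. There were 253 ± 80.7 Gabbr2 UMIs for every 100 of Gabbr1 in cluster 10 and 177 ± 70.1 in cluster 17 (SD, n = 3), so that Gabbr2 UMIs outnumbered those of Gabbr1 in each mouse. In cluster 3, which is also inhibitory-neuron-like, Gabbr2 had 8.80, 18.8 and 15.9 CPM and was called lower (−1.29, SE 0.24).

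Kctd16 was highest in cluster 8, with 611, 485 and 933 CPM (3.25, SE 0.19), and was called higher also in clusters 17, 2, 3 and 4. Kctd8 was highest in clusters 7, with 474, 382 and 437 CPM (2.56, SE 0.19), and 15, with 353, 317 and 466 CPM (2.36, SE 0.21). Its lowest level was in cluster 3, with 4.64, 8.42 and 7.82 CPM (−3.36, SE 0.34). Cluster 6 combined high Kctd8 (mean 305 CPM) and Gabbr2 with little Kcnj6, which had 16.01, 42.7 and 23.3 CPM and was called lower (−1.78, SE 0.37). Cluster 10 combined the highest Gabbr2 with little Kctd8, at 22.9, 28.4 and 7.73 CPM (−1.81, SE 0.32). The thinned Kctd8 shares of clusters 3 and 10 were below that of microglia-like nuclei. The means of Gabbr2 in cluster 3 (14.5 CPM) and of Kcnj6 in cluster 6 (27.3 CPM) were also below the microglia-like means of 16.7 and 38.7 CPM, so that neither is read as expression. Over the 63 sums of mouse and cluster, r of log2(CPM + 1) between Gabbr2 and Kcnj6 was 0.70, a description like that over the PN sums, and cluster 6 departed from it. Kcnj3 was highest in cluster 12, with 1992, 1835 and 1994 CPM (1.87, SE 0.26). Kcnj6 was highest in cluster 1, with 284, 371 and 323 CPM (2.04, SE 0.24), and Kcnj9 in cluster 10, with 73.4, 47.00 and 69.6 CPM (1.76, SE 0.19).

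Kctd12 was abundant only outside the named neuron clusters among those fitted. It had 497, 293 and 461 CPM in cluster 11, which was not named and whose leading genes included Mybpc1, Fabp7, Npy and Frzb (5.91, SE 0.15, adjusted p = 2.06e-39). Microglia-like cluster 20 had 309, 129.7 and 115 CPM (4.09, SE 0.29, adjusted p = 9.12e-18) and the unnamed cluster 18, with Ly6c1, Dcn and Rgs5 among its leading genes, had 17.9, 22.1 and 62.1 CPM. In the projection- and inhibitory-neuron-like clusters the mean did not exceed 10.8 CPM. A Kctd12 UMI was expected in 47.9% of thinned nuclei of cluster 11 and 29.5% of microglia-like ones, against 2.06% in cluster 1. Kctd12b, with 269 UMIs in all nuclei, was highest in cluster 18, with 17.9, 8.28 and 19.1 CPM, and was called higher there and in clusters 9, 11, 19, 7 and 4.

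Astrocyte-like cluster 9 had Gabbr1 at 103, 123 and 103 CPM and Gabbr2 at 80.96, 56.4 and 59.7 CPM. Its Kcnj3 was at 444, 618 and 466 CPM. Kcnj3 was also counted in oligodendrocyte-like cluster 16, with 76.7, 389.96 and 14.3 CPM, and in microglia-like cluster 20, with 32.5, 475 and 548 CPM. In both, the mice differed widely, from few nuclei (54, 207 and 21 in cluster 16, and 19, 103 and 24 in cluster 20), and the share of thinned nuclei with a Kcnj3 UMI was 10.7% and 15.4%. Against this background, 16.1% ± 12.93 of thinned M1-like nuclei and 87.7% ± 1.23 of ET2-like nuclei were expected to hold one. ET4-like nuclei had 19.95% ± 1.62 and M3-like nuclei 21.6% ± 4.17. The M1-, ET4- and M3-like shares lay within the spread of the microglia-like one (15.4% ± 13.7) and are not read as expression.

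Further genes of the pathway were taken as a list of 43, of which 41 could be tested, comprising among others G protein subunits, regulators of G protein signalling (RGS proteins, which shorten the signal), adenylyl cyclases and receptor-associated proteins. Between mitral-like and tufted-like types 3 of 41 (7.32%) were called, against 9.34% of all genes in either direction. They were Ajap1, a receptor-associated protein (1.66, SE 0.07), and Rgs8 (1.30, SE 0.37), both higher in mitral-like types, and Gng7, a G protein γ subunit (−2.18, SE 0.31). In all 3 the sums overlapped, and they are named after their values were seen. The median log2 fold change of the list was 0.11 against −0.03 for all genes.

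Between projection and inhibitory neurons 18 of 41 (43.9%) were called, 7 higher and 11 lower in projection neurons, against 29.3% of all genes. Rgs11 had 6.70 ± 0.849 CPM in inhibitory and 116 ± 12.3 CPM in projection neurons (SD, n = 3), with a log2 fold change of 4.18 (SE 0.14). The adenylyl cyclase genes Adcy8 (1.75, SE 0.11) and Adcy5 (1.61, SE 0.12) were higher too. Rgs6 was lower in projection neurons, with 9.41 ± 3.46 against 279 ± 55.3 CPM (−4.80, SE 0.29), as were Rgs12 (−3.51, SE 0.25) and Kcnk10 (−3.26, SE 0.14), a potassium channel gene. RGS genes thus stood at both ends of the list, whose median was −0.33 against 0.01 for all genes.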

How the data were processed

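Per the file headers, the deposited raw UMI counts are output of Cell Ranger 3.0.2, run by the authors on GRCm38, who also deposited cluster numbers from Seurat. The deposited percent of mitochondrial UMIs, with the limits of at least 1000 genes and at most 5%, was checked on the counts. Whether intronic reads were counted is not given in the sources used here. Genes with counts overlap on the opposite strand Kcnj6 (Gm41505, 5117 UMIs), Kctd12 (Gm26778, 947), Kcnj3 (Gm26794, 869) and Kcnj9 (Gm36937, 6).

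Clusters were named where at least 3 listed markers reached 25% (subclusters 50%) of their highest level, and periglomerular markers were not held against the inhibitory neuron name, a choice made after values were seen. No doublet caller was run, and the sort gated on single nuclei. Counts were summed per mouse and type, filtered with filterByExpr, scaled by TMM and tested with edgeR 4.0.16 quasi-likelihood fits in R 4.3.3. P-values were adjusted by Benjamini-Hochberg across every gene of a fit. SEs were derived from each log2 fold change and its F statistic (their ratio after taking the root of F). CPM values do not include TMM factors. The study itself tested nuclei rather than sums. Genes and lists were chosen with earlier results of these data known. Named were all 10 genes, up to 3 other pathway genes in each direction (the largest fold among called genes without overlap between groups) and the 3 most similar genes (those of 1 gene are not reported here). The pathway genes named between mitral-like and tufted-like types fall outside this rule and are named because they were the only 3 called. Positions are from GENCODE M21.

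On counts simulated for the mitral-like and tufted-like contrast (14115 genes), 98% of 100 genes changed 2-fold and 100% of 100 changed 3-fold reached an adjusted p below 0.05 in the right direction, with no fold required, and 6 unchanged genes had an adjusted p below 0.05. The sums come from the same 3 animals, so the mouse pairs them. Deviations from type means correlated at a mean r of 0.125 within mice (63 pairs) and −0.0624 between mice (126 pairs). Alternatives were DESeq2, library size alone, no filter, a mouse block, nuclei with at least 1500 genes, leaving out each mouse and, added after the data were seen, leaving out shared barcodes or the M1-like sum of mouse 1.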

Additional observations from a re-analysis of the deposited data

Results flagged for a closer look

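Kctd16 reached a mean of 579.8 CPM (487 to 703 in the 3 mice) in subcluster 8, a group of 126 nuclei that no marker list named and that entered the cluster sums but no comparison of types or classes. This was above the highest sum of Kctd16 in any named PN type, 367.3 CPM in T1-like nuclei of mouse 2. It is listed because the lowest of the 3 mice in this group lay above the highest sum of any named PN type. Inhibitory-neuron-like cluster 8 had a higher mean of Kctd16, 677 CPM, and Gm28928 and Fam135b were among the leading genes of both groups of nuclei.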

How the results depend on the processing

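Counts of called genes kept within 1.5 times their reported value in all alternatives run. Genes that differed between the 7 types numbered 9 to 10, mitral-like against tufted-like 5 to 6, external tufted-like against others 4 to 6, calls in 1 type against the others 27 to 31, projection against inhibitory neurons 4 to 5, inhibitory-neuron-like clusters 7 to 9, and calls in 1 cluster 67 to 86, of which the lowest and highest include leaving out a mouse. No called fold change of the 10 genes between mitral-like and tufted-like, external tufted-like and other, or projection and inhibitory neurons changed its sign. Pairs of types were not refitted under any alternative. Without a filter on low counts, Kctd12b was called in ET4-like nuclei (4.79, adjusted p = 4.76e-09) and Kcnj5 higher in projection neurons (2.63, adjusted p = 0.00166). Kcnj3 between external tufted-like and other types lay between 0.81 and 1.12 and was called in 7 of 10 alternatives. With the mouse as a block (paired analysis), the calls of Kcnj3 (1.00) in external tufted-like and Kcnj6 (−1.11) in M1-like nuclei were gained and no other call changed among the type and class contrasts refitted. DESeq2 dropped Kctd16 in M3-like (adjusted p = 0.0547) and Kcnj3 in T1-like nuclei (0.96), and library size alone dropped these and Kctd8 in M2-like nuclei (0.98). The median share of nuclei with a UMI, over 10 genes and 7 types, was 6.085% after thinning to 2000 UMIs, 10.07% after thinning to 4000 UMIs and 20.12% without thinning, a consequence of the depth kept. Depth limits Kcnj5, Kctd12 and Kctd12b, and 3 mice and the 14 M1-like nuclei of mouse 1 limit the rest.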

Other observations

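Subcluster 2, with 943 nuclei and without a name, had Dlx6os1, Syt10 and Meis2 among its leading genes and entered the cluster sums but no comparison of types or classes. It had Gabbr2 at 27.9, 36.6 and 34.97 CPM, Kctd16 at 163, 211 and 219 CPM, Kcnj3 at 707, 712 and 754 CPM and Kcnj6 at 89.8, 166 and 96.2 CPM in mice 1, 2 and 3. Each of these Gabbr2 values lies between those of the external tufted-like and of the other named types.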
